A study of Rattus norvegicus with 12 samples.

Results

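The genes described here build the junctions that hold heart muscle cells to each other and the integrin adhesions that hold them to matrix. They were chosen by name, as the probe sets with exactly 1 gene symbol on the platform annotation that is among 39 listed genes of the intercalated disc and of integrin adhesion. Of these, 27 genes were measured, each by 1 probe set, out of 14324 named genes in all. The other 12 (Cdh11, Ctnna3, Dsp, Pkp4, Dsg2, Tln2, Lims1, Itga3, Itga8, Itga9, Itgav and Itgb3) were not analysed here. The 39 genes and the other lists below were chosen with earlier results of these data known. RNA was measured on Affymetrix arrays in cardiomyocyte cultures from hearts of Sprague-Dawley rat pups 2 days old. After 3 days in culture the cells received 1, 10 or 50 µg/ml of the plasticiser di(2-ethylhexyl) phthalate (DEHP) for a further 3 days, and all groups, the vehicle group included, were given 0.1% dimethyl sulphoxide (DMSO). There were 3 arrays in each of the 4 groups. Since 1 litter supplied every culture, a p-value here covers the spread between its cultures and not that between litters.

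The intercalated disc joins heart muscle cells end to end. In its adherens junctions the cadherin Cdh2 reaches across the gap between cells, and catenins tie it to actin. In its desmosomes the cadherins Dsg2 and Dsc2 are tied through plakoglobin (Jup), plakophilin (Pkp2) and desmoplakin (Dsp) to intermediate filaments. Integrins are receptors of an alpha and a beta chain that bind matrix outside the cell and, through talin, vinculin and the complex of Ilk, Lims1 or Lims2 and Parva, bind actin inside.

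All values below are log2 ratios of 1 array's signal to the 12-array median of that probe set, and a difference is between group means of these ratios. A ratio holds no level, so genes are not compared in abundance, and neither the distance of a gene from background nor the presence of the labelled cell type's markers could be read from it. The sources used here do not record the ratio's direction. It was taken as the array divided by the median, and every rise below becomes a fall of equal size if the authors divided the other way. Differences were tested with limma across all named genes, with Benjamini-Hochberg adjustment over the 14324 genes and a threshold of 0.05. The SD of an array's deviations from its group mean, over all genes, was 0.119 for 10 µg/ml replicate 2 and ran from 0.0591 to 0.0929 for the other 11 arrays, so that array stood apart.

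At 50 µg/ml 6 of the 27 genes rose (Jup, Pkp2, Lims2, Itgb6, Ctnna1 and Cdh2), 3 fell (Itga4, Itga1 and Vcl) and 18 did not pass the threshold. Over all named genes 17.6% were called in this comparison, with 8.75% higher and 8.84% lower. The median difference of the 27 genes was -0.02, against 0.02 over all genes. The groups did not overlap in 14 of the 27, where 36% of all genes had groups that did not overlap. The plot of fitted differences by dose shows the 9 called genes in the comparison with 50 µg/ml and none in the others.

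**Figure D1:**
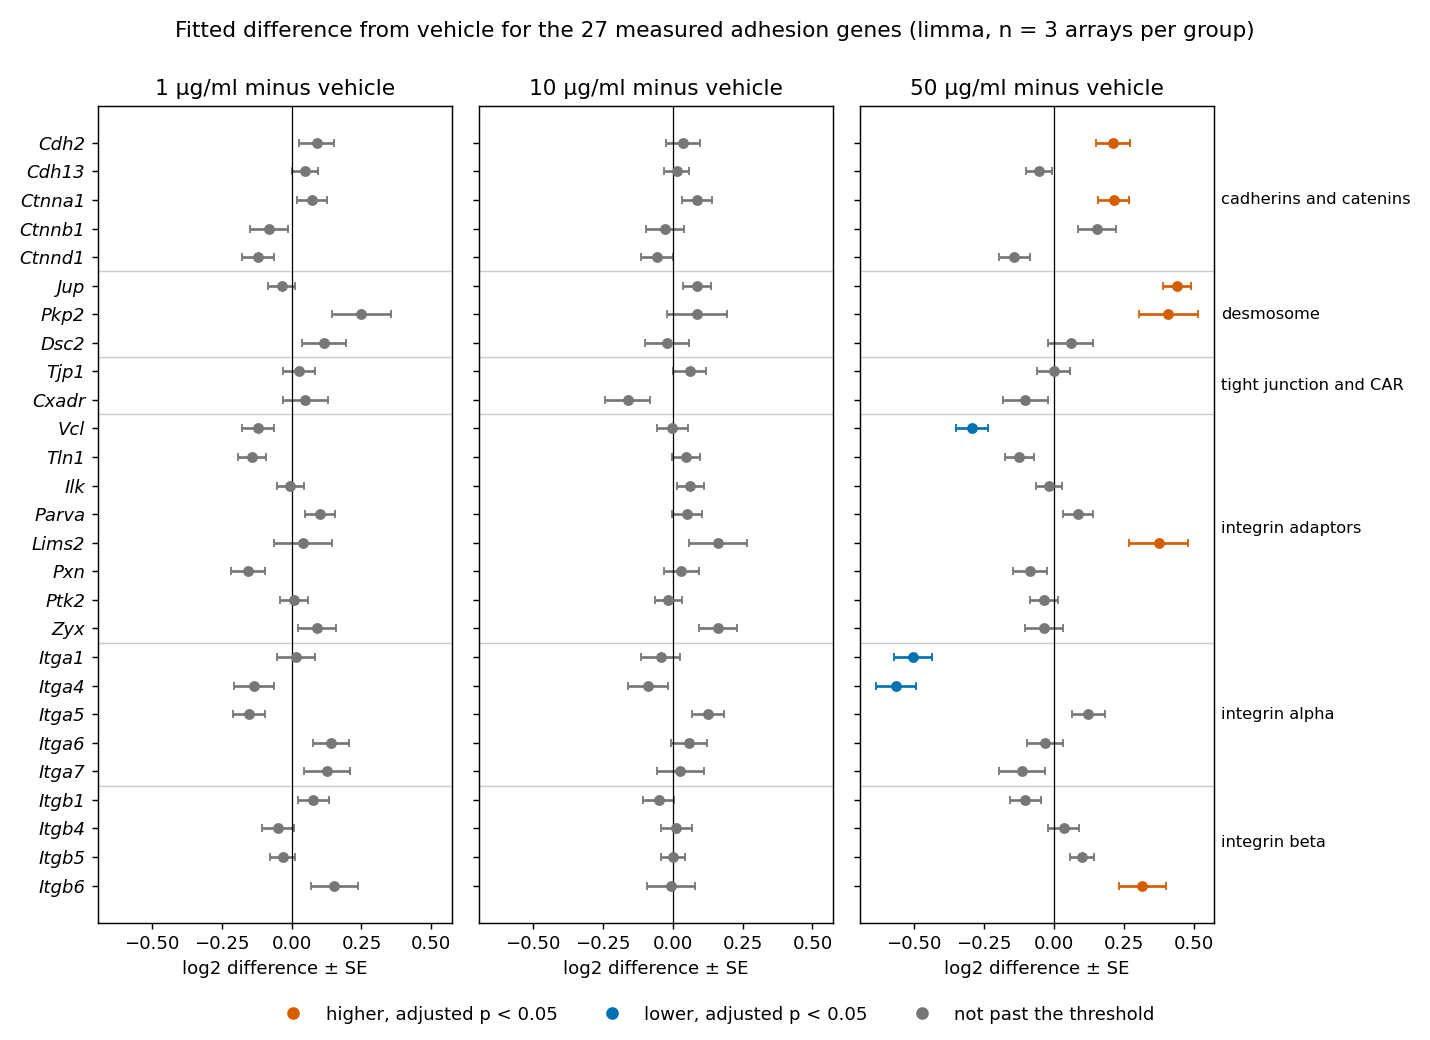
Fitted log2 difference from vehicle (x axis, point ± SE) for each of the 27 genes (y axis, grouped by role) at 1, 10 and 50 µg/ml, with 3 arrays per group. At 50 µg/ml the points of Jup (0.44) and Pkp2 (0.41) lie farthest right and those of Itga4 (-0.56) and Itga1 (-0.50) farthest left, and 0 genes are called at 1 and at 10 µg/ml.

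Promoters are shown for the 4 genes that stayed past the threshold at 50 µg/ml in all 19 alternative settings. Each runs from 250 bases before to 50 bases after the annotated start, 5′ to 3′ on the gene's strand, from RefSeq on build GRCr8. RefSeq promoters of this length were matched for 17 of the 27 genes. Capitals mark matches, on either strand, to motifs named for Sp1 (GGGCGG), TEAD factors (GGAATG) and AP-1 (TGANTCA), to a TATA box (TATAAA) and to the CArG box bound by serum response factor.
Jup, chr10:85827380-85827679, minus strand: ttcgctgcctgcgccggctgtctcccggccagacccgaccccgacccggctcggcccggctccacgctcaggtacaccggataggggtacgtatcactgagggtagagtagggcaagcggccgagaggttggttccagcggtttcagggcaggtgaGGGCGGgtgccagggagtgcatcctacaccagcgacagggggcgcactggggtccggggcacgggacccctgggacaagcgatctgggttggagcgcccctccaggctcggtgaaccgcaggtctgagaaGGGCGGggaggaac
Itga1, chr2:48545234-48545533, minus strand: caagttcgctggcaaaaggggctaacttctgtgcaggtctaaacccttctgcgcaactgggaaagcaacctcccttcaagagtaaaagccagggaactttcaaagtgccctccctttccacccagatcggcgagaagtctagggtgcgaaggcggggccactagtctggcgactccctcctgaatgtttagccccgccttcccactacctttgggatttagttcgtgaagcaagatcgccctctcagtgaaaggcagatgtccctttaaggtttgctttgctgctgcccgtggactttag
Itga4, chr3:84569765-84570064, plus strand: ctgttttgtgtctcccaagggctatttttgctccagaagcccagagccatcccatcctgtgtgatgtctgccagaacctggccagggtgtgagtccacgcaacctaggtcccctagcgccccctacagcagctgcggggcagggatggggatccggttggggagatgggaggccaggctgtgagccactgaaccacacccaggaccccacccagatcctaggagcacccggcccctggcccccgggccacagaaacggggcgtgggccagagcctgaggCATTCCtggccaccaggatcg
Vcl, chr15:3404751-3405050, minus strand: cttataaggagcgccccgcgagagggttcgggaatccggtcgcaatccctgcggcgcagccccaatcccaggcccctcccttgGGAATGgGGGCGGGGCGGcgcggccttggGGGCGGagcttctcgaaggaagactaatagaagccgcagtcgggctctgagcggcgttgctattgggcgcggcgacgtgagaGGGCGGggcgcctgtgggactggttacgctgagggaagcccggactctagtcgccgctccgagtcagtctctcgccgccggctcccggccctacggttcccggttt
The Jup promoter held 2 Sp1 matches, starting at positions -94 and 37 from the start. Vcl held 4 Sp1 matches, those at -160 and -155 sharing a base, and a TEAD match at -167. Itga4 held 1 TEAD match on the opposite strand at 30, and Itga1 held none of the 5 motifs. Of all 33469 promoters of this length 33.1% held the Sp1 letters, 14.2% the TEAD letters, 7.33% the AP-1 letters, 14.2% the TATA box and 1.64% a CArG box. The promoters of Jup and Vcl had a G+C content of 69% and 68.7% and 25 and 35 CG dinucleotides, whereas those of Itga4 and Itga1 had 64.7% and 53.7% and 9 and 11, beside medians of 51.7% and 7 over all promoters. The 17 matched genes had 20 promoters, since some genes had more than 1. Of these promoters 8 held the Sp1 letters, 5 the TEAD letters and 2 a CArG box. The TATA box stood in 1 of them and the AP-1 letters in 0. These counts were not tested against the shares of all promoters. A CArG box stood at -95 in the promoter of Itgb6, and another at 22 in that of Ctnnd1.

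Desmosome genes showed the largest rises. Jup encodes plakoglobin, which sits in both desmosomes and adherens junctions. Its ratios were 0.39, 0.32 and 0.39 in the 50 µg/ml arrays, against -0.11, 0.01 and -0.12 in the vehicle arrays. The 3 arrays at 50 µg/ml lay above the other 9 arrays, where the highest value was 0.03. Jup rose by 0.44 ± 0.05 (SE), or 1.36-fold (adjusted p = 5.05e-05, limma). Pkp2, the plakophilin of heart desmosomes, had 0.25, 0.12 and 0.24 at 50 µg/ml, against -0.05, -0.18 and -0.38 in vehicle. The groups did not overlap, and vehicle replicate 3 was the lowest of the 12 arrays. Pkp2 rose by 0.41 ± 0.11, or 1.33-fold (adjusted p = 0.0175), but lost the call without vehicle replicate 3 (0.32, adjusted p = 0.0808), 50 µg/ml replicate 1 (adjusted p = 0.0544) or replicate 3 (adjusted p = 0.0596). Dsc2, the desmosomal cadherin among the 27 genes, had 0.19, -0.14 and 0.04 at 50 µg/ml and -0.05, 0.06 and -0.10 in vehicle. Its groups overlapped, and its difference was 0.06 ± 0.08 (adjusted p = 0.689). Another desmosomal cadherin, Dsc3, is outside the 27 genes and rose by 0.34 ± 0.05 (adjusted p = 0.000357).

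Among cadherins and catenins, 2 of 5 measured genes rose at 50 µg/ml and 0 fell, with a median difference of 0.155. N-cadherin (Cdh2), the main cadherin of the intercalated disc, had 0.14, 0.15 and 0.10 in the 50 µg/ml arrays, against -0.03, -0.10 and -0.11 in vehicle. Alpha-catenin (Ctnna1), which links the complex to actin, had 0.19, 0.05 and 0.13 at 50 µg/ml, against -0.01, -0.08 and -0.18 in vehicle. In both genes each array at 50 µg/ml lay above each vehicle array. Cdh2 rose by 0.21 ± 0.06 (adjusted p = 0.0313) and Ctnna1 by 0.21 ± 0.05 (adjusted p = 0.0157). Ctnna1 lost its call without vehicle replicate 3 (adjusted p = 0.075) or 50 µg/ml replicate 1 (adjusted p = 0.0613), and Cdh2 without vehicle replicate 2 or 3 (adjusted p = 0.0975 and 0.0998) or any array at 50 µg/ml (adjusted p of 0.0585 to 0.0839).

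The other catenins did not pass. Beta-catenin (Ctnnb1), which binds cadherin tails and also acts in Wnt signalling, had 0.23, 0.05 and 0.16 at 50 µg/ml, against -0.01, 0.06 and -0.07 in vehicle. The groups overlapped, and the difference was 0.15 ± 0.07 (adjusted p = 0.146). Ctnnd1, the p120 catenin that holds cadherins at the membrane, lay lower in each array at 50 µg/ml (-0.04, -0.11 and -0.06) than in each vehicle array (0.12, 0.04 and 0.05), with a difference of -0.14 ± 0.06 that missed the threshold (adjusted p = 0.106). Cdh13, a cadherin anchored in the membrane by lipid and without a catenin-binding tail, differed by -0.05 ± 0.05 (adjusted p = 0.497). Neither gene of the tight junction group was called. Tjp1, the scaffold ZO-1, differed by less than its error (adjusted p = 0.995), and Cxadr, the coxsackievirus and adenovirus receptor found at the disc, by -0.10 ± 0.08 (adjusted p = 0.462).

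Integrin alpha chains carried the largest falls, with 2 of 5 measured genes lower at 50 µg/ml and 0 higher. Itga4, whose chain pairs with beta 1 to bind fibronectin and the adhesion molecule Vcam1 and is abundant on leukocytes, had -0.43, -0.56 and -0.35 in the 50 µg/ml arrays, against 0.13, 0.14 and 0.10 in vehicle. Itga1, whose chain pairs with beta 1 to bind collagen, had -0.40, -0.51 and -0.52 at 50 µg/ml, against 0.04, 0.06 and -0.01 in vehicle. For both genes the 3 arrays at 50 µg/ml lay below all 9 others. Itga4 fell by 0.56 ± 0.07, to 0.676 times vehicle (adjusted p = 0.000144), and Itga1 fell by 0.50 ± 0.07, to 0.706 times vehicle (adjusted p = 0.00024). In bulk cultures fewer cells of a type and less RNA per cell cannot be told apart. Beside these falls, the macrophage markers had a median difference of -1.24, with 16 of 17 lower and 0 higher, and the per-array medians ran from -1.17 to -0.96 at 50 µg/ml and from 0.16 to 0.26 in vehicle. Their part in the falls of Itga4 and Itga1 was not tested.

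The other alpha chains did not pass at 50 µg/ml. The fibronectin receptor chain Itga5 differed by 0.12 ± 0.06 (adjusted p = 0.184), the laminin receptor chain Itga6 by -0.03 ± 0.06 (adjusted p = 0.797) and Itga7, the laminin receptor chain typical of striated muscle, by -0.11 ± 0.08 (adjusted p = 0.418). Of 4 beta chains, Itgb6 was called. Its chain pairs with the alpha v chain and is known mainly from epithelia. Its ratios were 0.18, 0.37 and 0.11 at 50 µg/ml, against -0.14, 0.04 and -0.18 in vehicle, so the groups did not overlap. It rose by 0.32 ± 0.09 (adjusted p = 0.0216), but not past the threshold without vehicle replicate 1 (adjusted p = 0.0835), vehicle replicate 3 (adjusted p = 0.0889) or 50 µg/ml replicate 2 (adjusted p = 0.0882). The common partner Itgb1 differed by -0.10 ± 0.06 (adjusted p = 0.255), with -0.04, -0.15 and -0.09 at 50 µg/ml below 0.02, 0.03 and -0.02 in vehicle. Itgb5, another partner of alpha v, was 0.10, 0.06 and 0.16 at 50 µg/ml and -0.02, 0.06 and -0.03 in vehicle with no overlap (difference 0.10 ± 0.04, adjusted p = 0.143), and Itgb4, the hemidesmosomal chain, differed by 0.03 ± 0.06 (adjusted p = 0.751).

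**Figure D2:**
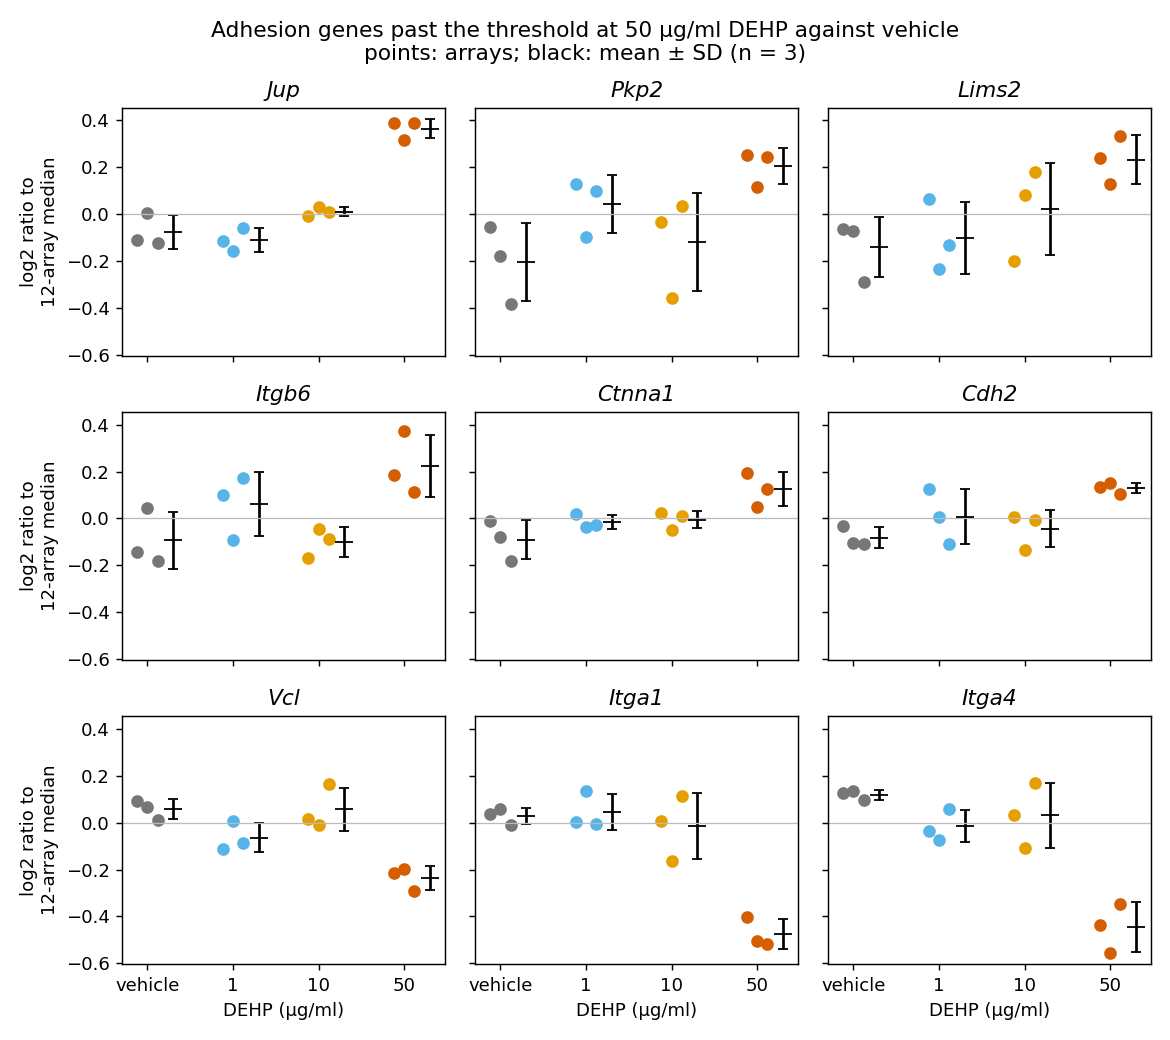
Log2 ratio to the 12-array median (y axis) in each array (points) of the vehicle, 1, 10 and 50 µg/ml groups (x axis) for the 9 called genes, with mean ± SD in black (n = 3). Jup at 50 µg/ml (0.32 to 0.39) and Itga1 (-0.52 to -0.40) and Itga4 (-0.56 to -0.35) at 50 µg/ml stand clear of their values in every other group.

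Among the 8 measured genes whose proteins couple integrins to actin, 1 rose and 1 fell. Vinculin (Vcl), which binds talin and alpha-catenin and so serves both kinds of adhesion, had -0.22, -0.20 and -0.29 at 50 µg/ml, against 0.09, 0.07 and 0.01 in vehicle. Each array at 50 µg/ml lay below the other 9 arrays. Vcl fell by 0.29 ± 0.06, to 0.816 times vehicle (adjusted p = 0.00293). Lims2, which encodes a PINCH adaptor that binds Ilk, had 0.24, 0.13 and 0.33 at 50 µg/ml, against -0.07, -0.07 and -0.29 in vehicle. It rose by 0.37 ± 0.10 (adjusted p = 0.0258). The call was lost without vehicle replicate 3 (0.30, adjusted p = 0.11), 50 µg/ml replicate 1 (adjusted p = 0.0605) or 50 µg/ml replicate 3 (adjusted p = 0.0973). The Lims2 call was also lost after a repeated quantile normalization, which acted on the log2 ratios (adjusted p = 0.0559). Its partners in that complex, the integrin-linked pseudokinase Ilk and the parvin Parva, differed by -0.02 ± 0.05 (adjusted p = 0.859) and 0.09 ± 0.05 (adjusted p = 0.326).

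Talin (Tln1), which activates integrins by binding beta chain tails, was -0.07, -0.12 and -0.07 at 50 µg/ml, below 0.03, 0.07 and 0.00 in vehicle, with a difference of -0.12 ± 0.05 that did not pass (adjusted p = 0.124). The scaffold paxillin (Pxn) stood at -0.09 ± 0.06 (adjusted p = 0.413). The focal adhesion kinase Ptk2 and the zyxin gene Zyx stood at -0.04 ± 0.05 (adjusted p = 0.693) and -0.04 ± 0.07 (adjusted p = 0.792). The genes of coupling proteins had a median difference of -0.04, against 0.41 for the desmosome genes, 0.155 for cadherins and catenins, -0.05 for the tight junction group, -0.11 for alpha chains and 0.07 for beta chains. These medians are over 8, 3, 5, 2, 5 and 4 genes and were not tested against each other.

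Of 15 heart muscle markers 9 were higher and 1 lower at 50 µg/ml, with a median of 0.19, and the per-array medians were 0.12, 0.05 and 0.15 at 50 µg/ml, against -0.01, -0.13 and -0.17 in vehicle. At 10 µg/ml the same list had a median of 0.17, with 15 of 15 above 0, 0 called and 9 at an unadjusted p under 0.05. Of the 6 genes that rose at 50 µg/ml, Lims2 stood at 0.16 ± 0.10 at 10 µg/ml and Pkp2 at 0.09 ± 0.11. Jup and Ctnna1 each stood at 0.09 ± 0.05, Cdh2 at 0.04 ± 0.06 and Itgb6 at -0.01 ± 0.09 (adjusted p of 0.807 to 0.996 for the 6 genes). Vehicle replicate 3 held the lowest value of this list and of Pkp2, Lims2, Ctnna1 and Itgb6. The lowest values of Jup and Cdh2 were in 1 µg/ml replicate 2 and 10 µg/ml replicate 2. Epicardial and mesothelial markers had 4 of 9 higher and 0 lower, with a median of 0.245. Fibroblast markers had 0 of 12 higher and 3 lower (median -0.01), endothelial markers 4 of 9 higher and 1 lower (median 0.25), and smooth muscle and pericyte markers 4 of 9 higher and 4 lower (median -0.09). Where 17.6% of all genes were called, the called shares were 66.7% for heart muscle, 94.1% for macrophage and 44.4% for epicardial and mesothelial markers. They were 25% for fibroblast, 55.6% for endothelial and 88.9% for smooth muscle and pericyte markers. The part of any of these lists in the changes of the adhesion genes was not tested.

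**Figure D3:**
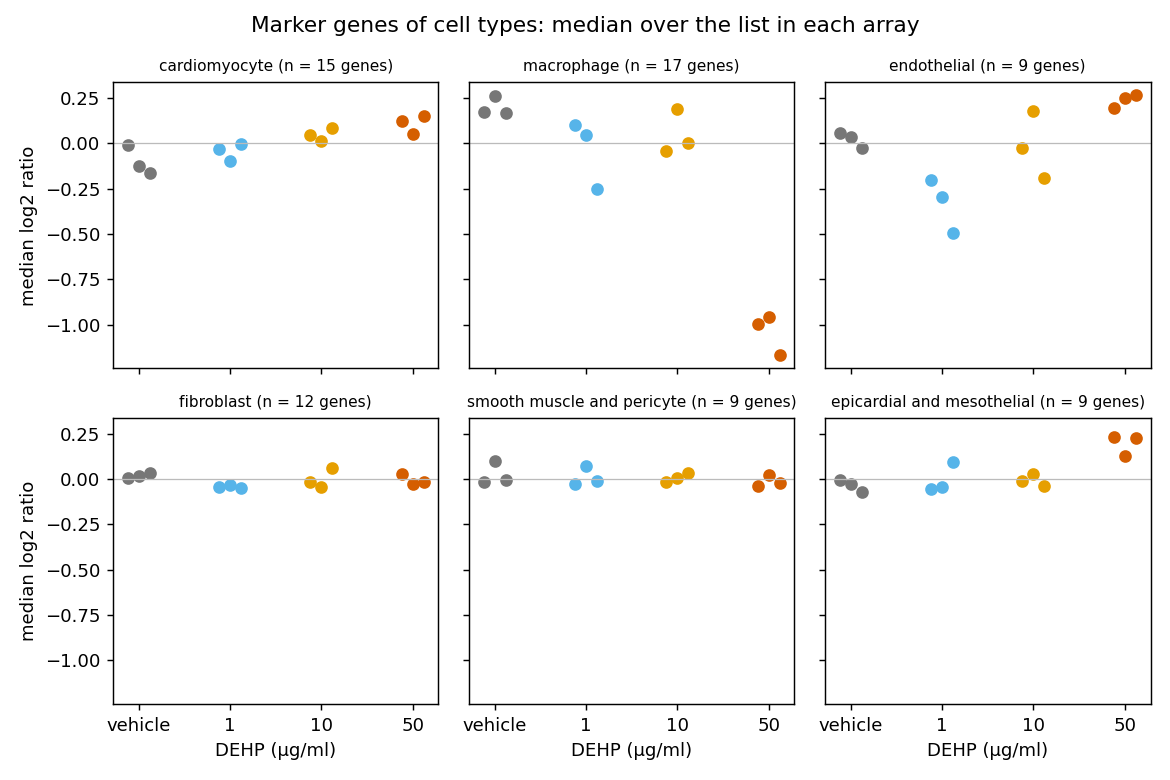
Median log2 ratio (y axis) over each list of cell type markers in each array (points) by DEHP dose (x axis). The macrophage list lies at -1.17 to -0.96 in the 50 µg/ml arrays, against 0.16 to 0.26 in vehicle, and the heart muscle list at 0.05 to 0.15, against -0.17 to -0.01.

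The lower doses were compared with vehicle to ask whether the response depended on dose. At 1 µg/ml limma called 0 of the 27 genes, with 5 at an unadjusted p under 0.05 (Pkp2, Tln1, Pxn, Itga5 and Itga6), whereas 4.24% of all genes were called (2.51% higher and 1.74% lower) and 20.2% had such an unadjusted p. The share of all genes called was 1.23%, 1.4% and 1.35% without vehicle replicate 1, 2 or 3, 1.35%, 2.52% and 1.44% without 1 µg/ml replicate 1, 2 or 3, and 8.95% without 10 µg/ml replicate 2, while the count of the 27 genes stayed at 0. At 10 µg/ml it called 0 of 27 with 1 at an unadjusted p under 0.05 (Zyx), and 0% of all genes, of which 6.28% had such an unadjusted p. The 9 genes called at 50 µg/ml stood between -0.14 (Itga4) and 0.25 (Pkp2) at 1 µg/ml and between -0.09 (Itga4) and 0.16 (Lims2) at 10 µg/ml. These comparisons share the vehicle arrays. All 3 arrays at 1 µg/ml lay on one side of vehicle in 7 of the 27 genes, where 30.8% of all genes did so. The median of the 27 genes was 0.03 at each of these doses, against 0.00 and -0.01 over all genes at 1 and 10 µg/ml.

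**Figure D4:**
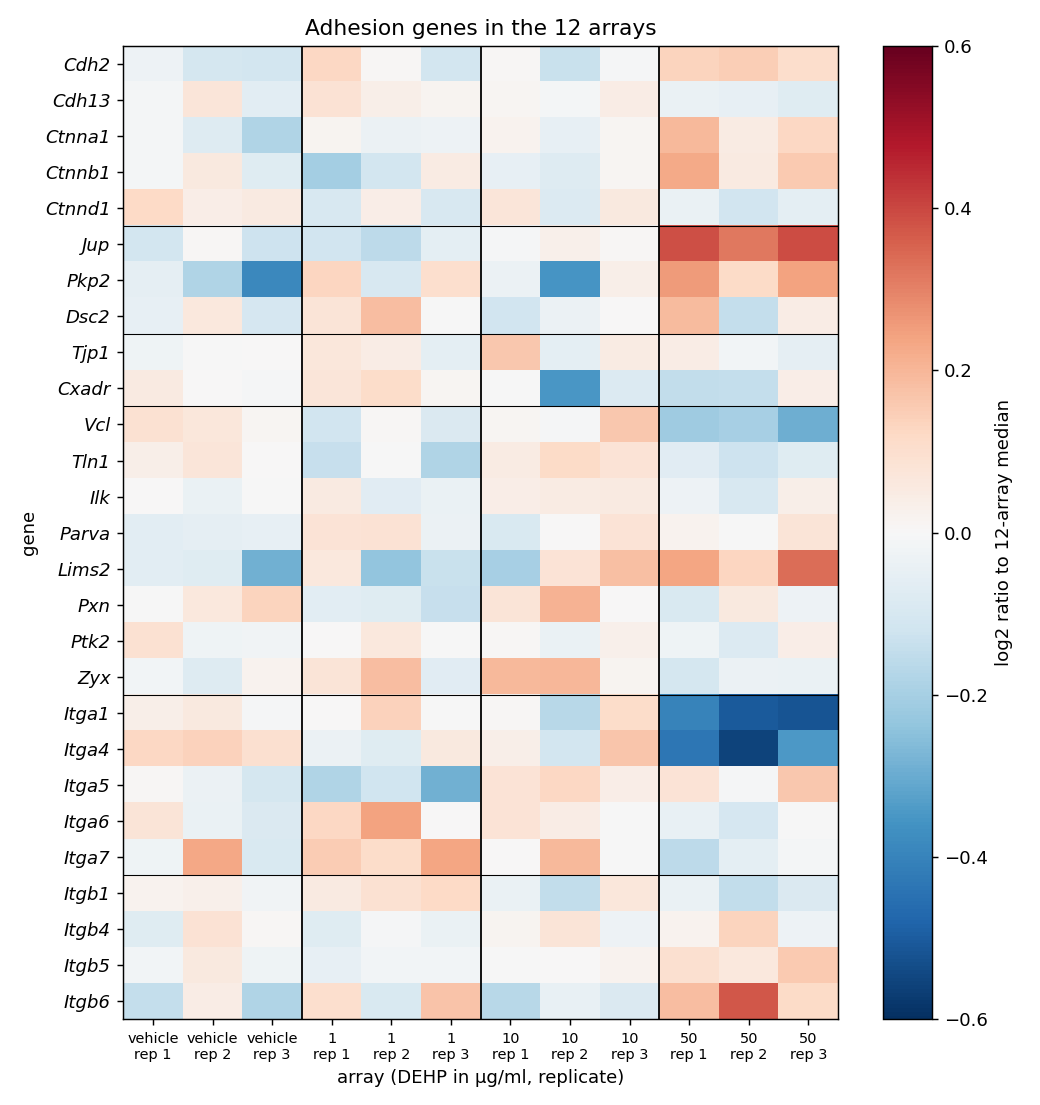
Log2 ratio to the 12-array median (colour) of each of the 27 genes (rows, by role) in each of the 12 arrays (columns, by DEHP dose and replicate). Jup (0.32 to 0.39), Itga1 (-0.52 to -0.40) and Itga4 (-0.56 to -0.35) stand out in all 3 arrays at 50 µg/ml, and 10 µg/ml replicate 2 shows low Pkp2 (-0.36) and Cxadr (-0.35).

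The 50 µg/ml arrays were next set against the lower doses. Against 1 µg/ml, 5 genes were higher and 4 lower, where 24.9% of all genes were called (11.5% higher and 13.4% lower). In 13 of the 27 genes these groups held no overlapping arrays, beside 40.9% of all genes. Jup was higher by 0.48 ± 0.05 (adjusted p = 3.19e-05), and Itga1 and Itga4 were lower by differences of -0.52 ± 0.07 (adjusted p = 0.000214) and -0.43 ± 0.07 (adjusted p = 0.00118). The 1 µg/ml arrays held -0.12, -0.16 and -0.06 for Jup, 0.00, 0.14 and 0.00 for Itga1 and -0.03, -0.07 and 0.06 for Itga4, so none overlapped with the 50 µg/ml arrays. Itga5 showed its lowest values at 1 µg/ml, with 0.08, -0.01 and 0.16 at 50 µg/ml against -0.18, -0.12 and -0.29 at 1 µg/ml. Its difference of 0.28 ± 0.06 passed (adjusted p = 0.00507), while neither dose differed from vehicle past the threshold for this gene.

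The other 5 calls between 50 and 1 µg/ml were smaller or less stable. Beta-catenin was higher by 0.24 ± 0.07 (adjusted p = 0.0236), with -0.21, -0.11 and 0.05 in the 1 µg/ml arrays. It missed the threshold without 1 µg/ml replicate 1 or 2 (adjusted p = 0.0977 and 0.0703) or 50 µg/ml replicate 1 or 3 (adjusted p = 0.0793 and 0.0626), and after a repeated quantile normalization (adjusted p = 0.0696). In the 1 µg/ml arrays Lims2 was 0.07, -0.24 and -0.13, and Itgb1 was 0.05, 0.09 and 0.12, with no overlap with the 50 µg/ml arrays. Lims2 was higher by 0.33 ± 0.10 (adjusted p = 0.0343) and Itgb1 lower by a difference of -0.18 ± 0.06 (adjusted p = 0.032). Lims2 lost its call without 1 µg/ml replicate 2 or 3 (adjusted p = 0.13 and 0.0938) or 50 µg/ml replicate 1 or 3 (adjusted p = 0.0702 and 0.115), after a repeated quantile normalization (adjusted p = 0.147) and with all probe sets tested (adjusted p = 0.0507). Itgb1 lost its call without 1 µg/ml replicate 1, 2 or 3 (adjusted p = 0.0521, 0.0789 and 0.1) or 50 µg/ml replicate 2 or 3 (adjusted p = 0.115 and 0.0695), and after a repeated quantile normalization (adjusted p = 0.0617). Vcl (-0.17 ± 0.06, adjusted p = 0.0418) and Itgb5 (0.13 ± 0.04, adjusted p = 0.0419) lay just past the threshold. Their 1 µg/ml arrays held -0.11, 0.01 and -0.09 for Vcl and -0.05, -0.02 and -0.02 for Itgb5. Of the 12 omissions of 1 array, Vcl kept the call only without 10 µg/ml replicate 2 or 3 (adjusted p up to 0.151) and Itgb5 only without vehicle replicate 2, 10 µg/ml replicate 2 or 3, or 50 µg/ml replicate 2 (adjusted p up to 0.133). Itga7 just missed the threshold at -0.24 ± 0.08 (adjusted p = 0.0512), with no overlap between the groups. It passed in some alternatives, among them centring on array medians and the replicate block.

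Against 10 µg/ml, 2 genes were higher and 4 lower, where 14.6% of all genes were called (7.75% higher and 6.85% lower) and 26.2% did not overlap, as did 15 of the 27. Jup (0.35 ± 0.05, adjusted p = 0.00034) and Itgb6 (0.32 ± 0.09, adjusted p = 0.0219) were higher. Itga4 (-0.48 ± 0.07, adjusted p = 0.000655), Itga1 (-0.46 ± 0.07, adjusted p = 0.000611), Vcl (-0.29 ± 0.06, adjusted p = 0.00361) and Tln1 (-0.17 ± 0.05, adjusted p = 0.0411) were lower. Tln1 kept its call only in the omissions of 1 µg/ml replicate 2 or 3 and lost it in the other 10, 10 µg/ml replicate 2 among them. Itgb6 lost its call without 10 µg/ml replicate 1 or 50 µg/ml replicate 2. Between 10 and 1 µg/ml, Itga5 (0.28 ± 0.06, adjusted p = 0.0109) and Tln1 (0.19 ± 0.05, adjusted p = 0.0298) were higher at 10 µg/ml and 0 genes were lower, where 14% of all genes were called (4.77% higher and 9.2% lower) and 30.4% did not overlap, as did 6 of the 27. The share of all genes called was 6.59% without 1 µg/ml replicate 1, 5.72% without 1 µg/ml replicate 3 and 6.14% without 10 µg/ml replicate 2. Talin was 0.05, 0.11 and 0.08 at 10 µg/ml, against -0.14, 0.00 and -0.18 at 1 µg/ml. Tln1 lost this call without 1 µg/ml replicate 1 or 3 or 10 µg/ml replicate 2, while Itga5 was called in all 12 omissions. The moderated F test over the 4 groups called 9 of the 27 genes (Jup, Itga1, Itga4, Vcl, Itga5, Tln1, Itgb6, Pkp2 and Ctnna1), where it called 27.2% of all genes.

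Other genes of the same structures were read from lists drawn up by their roles. Of 9 other integrin subunits measured, 4 fell and 0 rose at 50 µg/ml, or 44.4% called beside 17.6% of all genes. Itgb2 and Itgam, the leukocyte integrin chains that also stand on the macrophage list, fell by 0.67 ± 0.08 (adjusted p = 5.92e-05) and by 0.60 ± 0.07 (adjusted p = 5.77e-05). Both were also lower at 1 µg/ml, with differences of -0.37 ± 0.08 (adjusted p = 0.0202) and -0.27 ± 0.07 (adjusted p = 0.0454). Itgb8, a partner of alpha v, fell by 0.64 ± 0.11 (adjusted p = 0.00105). Of 31 integrin regulators and focal adhesion partners 3 rose and 5 fell (25.8% called). The falls included Fermt3, the kindlin of blood cells, with a difference of -0.91 ± 0.09 (adjusted p = 1.44e-05) and Parvg, the parvin of blood cells, with -0.48 ± 0.07 (adjusted p = 0.000256), while the scaffold Git1 rose by 0.38 ± 0.05 (adjusted p = 0.000322).

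Of 12 matrix ligands of integrins 1 rose and 2 fell (25% called). The laminin chain Lamb3 rose by 0.58 ± 0.08 (adjusted p = 0.000206), whereas the basement membrane protein Nid2 and fibronectin (Fn1), which Itga4 and Itga5 receptors bind, fell by 0.53 ± 0.06 (adjusted p = 8.74e-05) and by 0.16 ± 0.05 (adjusted p = 0.04). Costamere and dystrophin complex genes, which anchor the sarcomere to the membrane, had 4 of 17 higher and 3 lower (41.2% called). Ldb3, a Z-disc protein, rose by 0.53 ± 0.07 (adjusted p = 0.000317), while the Z-disc protein Pdlim3 and the syntrophin Sntb1 fell by 0.54 ± 0.05 (adjusted p = 2.44e-05) and by 0.40 ± 0.07 (adjusted p = 0.00141). Of 29 other cadherins, catenins and junction proteins 4 rose and 1 fell, a called share of 17.2% that lay near the 17.6% of all genes. The desmosomal cadherin Dsc3 rose by 0.34 ± 0.05 (adjusted p = 0.000357) and the adhesion protein Nectin1 by 0.32 ± 0.07 (adjusted p = 0.008). Cdh5, the cadherin of endothelium, was higher at 50 µg/ml by 0.57 ± 0.12 (adjusted p = 0.00498) and lower at 1 µg/ml by a difference of -0.66 ± 0.12 (adjusted p = 0.0118). The endothelial marker list had medians of 0.25 and -0.34 at these doses. Cdh5 is itself 1 of the 9 measured genes of that list, its highest at 50 µg/ml and its lowest at 1 µg/ml, so the comparison is not independent of it.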

How the data were processed

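Heart cell cultures of the 4 groups gave 12 arrays. RMA made the array values, per the submitters' processing notes, and its version was not given in the sources read. The deposited values are linear ratios of each array to the median of its probe set over the 12 arrays, found from the values (the log2 midpoint was 0 within 1e-06 for all 27342 probe sets). The medians of the arrays' ratios ran from 0.994 to 1.01. Scale and centring were found this way, and the direction stays unknown. Ratios were converted to log2. Of 27342 probe sets 15097 had 1 gene symbol, 323 several and 11922 none, and probe sets of a gene were averaged (14324 genes, 499 with several). Of the probe sets with 1 symbol, 15067 had their Entrez identifier in RefSeq's GRCr8 genes, and 0 symbols changed.

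A model of group means was fitted in limma 3.58.1 (R 4.3.3) to all 12 arrays (8 residual degrees of freedom), with two-sided moderated tests and Benjamini-Hochberg adjustment over all genes, which gave every adjusted p-value of a gene. An exact permutation of 3 arrays against 3 cannot go below 0.1. The number of arrays limits the precision. Genes named are the 27 measured members, and from each other list the 3 with the smallest p among those called at 50 µg/ml. The members and lists were chosen with earlier results of these data known, and the 5 promoter motifs were chosen after the data were examined. Alternatives were a repeated quantile normalization, centring on array medians, robust moderation, array weights, a fit limited to the groups compared, a replicate block, testing all probe sets, and omission of each array. The repeated quantile normalization acted on the log2 ratios and not on intensities, so it did not repeat a step of RMA. Before it, the SD of the ratios ran from 0.0869 to 0.0918 in vehicle and from 0.166 to 0.199 at 50 µg/ml. Giving all arrays the same distribution also removed this difference between groups.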

Additional observations from a re-analysis of the deposited data

How the results depend on the processing

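Of the 27 genes, the number called at 50 µg/ml against vehicle was 8 or 9 under each alternative that kept all arrays. It ran from 4 to 9 when 1 array was left out, with 4 without vehicle replicate 3 and 5 without 50 µg/ml replicate 1. Jup, Itga1, Itga4 and Vcl were called in all 19 alternatives, and none of the 18 gene differences followed changed sign. Their sizes moved, from 0.401 to 0.481 for Jup, -0.54 to -0.358 for Itga1, -0.615 to -0.465 for Itga4 and -0.317 to -0.262 for Vcl. The smallest Itga1 difference came after the repeated quantile normalization. Omitting a 1 or 10 µg/ml array left the differences from vehicle at 50 µg/ml unchanged and moved only their errors and adjusted p. Against vehicle, 0 genes were called at 1 and at 10 µg/ml under every alternative (leaving out 1 array, 0 to 0). The count between 50 and 1 µg/ml was 9, and 4 after a repeated quantile normalization, where Ctnnb1, Lims2, Itgb1, Vcl and Itgb5 lost their calls. That setting evens out the spread of the ratios, which was wider at 50 µg/ml, so these losses do not measure dependence on the normalization of intensities. With centring on array medians Itgb5 lost its call (adjusted p = 0.0635) and Itga7 gained one. With the compared groups alone Vcl (adjusted p = 0.0513) and Itgb5 (adjusted p = 0.0846) lost their calls and Itga7 gained one. When 1 array was left out the count was 4 to 10 (4 without 1 µg/ml replicate 2 or 50 µg/ml replicate 3, 5 without 1 µg/ml replicate 1 or 50 µg/ml replicate 1). Between 50 and 10 µg/ml it was 6, and 10 with array weights, with 4 to 7 when 1 array was left out. Between 10 and 1 µg/ml it was 2, and 1 when the fit held no other groups, with 1 to 4 when 1 array was left out. The F test called 9 genes, with 6 to 10 when 1 array was left out and 13 with array weights. The share of all genes called also moved by setting. At 1 µg/ml against vehicle it was 4.24%, and 12.4% with array weights, 11.6% with the compared groups alone and 7.95% after a repeated quantile normalization. Between 10 and 1 µg/ml it was 14%, and 22% with array weights and 4.87% with the compared groups alone. Between 50 and 10 µg/ml it was 14.6%, and 24.1% with array weights and 9.16% with the compared groups alone, and between 50 and 1 µg/ml it was 24.9%, and 16.2% after a repeated quantile normalization. Fewer arrays enter each omission, and the causes of the other changes were not tested. The median difference of the 27 genes ran from -0.0449 to -0.00576 at 50 µg/ml and from -0.000496 to 0.0569 at 1 µg/ml over omissions. Same-numbered arrays showed no clear shared deviation (correlations of -0.233 to 0.431, 6 of 18 over 0.1, and 10 of 36 highest at their own number). With 3 arrays per group this cannot tell whether the cultures were handled in numbered sets. With the replicate block 9 genes were called at 50 µg/ml against vehicle and 8 between 50 and 1 µg/ml. In the latter comparison Vcl (adjusted p = 0.0613) and Itgb5 (adjusted p = 0.0629) lost their calls and Itga7 gained one.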
